A study of Mus musculus with 12 samples.

Results

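The 8 genes of cholesterol metabolism described here were followed in the glomerular transcriptome of Alport syndrome (AS) mice: *Hmgcs1*, *Idi1*, *Sqle* and *Lss* of the synthesis pathway, *Srebf2*, *Srebf1* and *Insig1* of its control, and *Abca1* of cholesterol export. They were chosen by gene symbol. All 8 members were found among the 27592 genes listed for males and the 26048 listed for females. The members and the lists used below were chosen with earlier results of these data known. Counts set beside the share over all genes are therefore descriptions and no test of a set. The data were bulk RNA-seq of isolated glomeruli, the filtering units of the kidney, taken, per the labels, at 3.5 months of age (the study's supplement gives a different age for the male mice). Male AS mice (*Col4a5*-/-, strain B6.Cg-Col4a5 tm1Yseg/J, 3 libraries) were compared with male WT mice (C57BL/6J, 3 libraries), and heterozygous female AS mice (*Col4a5*+/-, same strain, 3 libraries) with female WT mice (C57BL/6J). *Col4a5* lies on the X chromosome and encodes a collagen chain of the glomerular basement membrane, and the allele is carried in every cell of the males and, through X inactivation, is active in only some cells of a heterozygous female. Female WT replicate 3 repeated every value of female WT replicate 1 and was counted once, which left 2 female WT libraries and 11 distinct libraries in all. Values are gene counts scaled by the authors with the trimmed mean of M values (TMM), called TMM-scaled counts here. Whether the WT mice were littermates is not given in the sources used here.

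Cells make cholesterol from acetyl-CoA through the mevalonate pathway. When sterols in the endoplasmic reticulum are low, the escort protein Scap carries the SREBP transcription factors, encoded by *Srebf1* and *Srebf2*, to the Golgi, where they are cut and released to switch on the synthesis enzymes. When sterols are high, Insig proteins hold SREBPs back, and oxysterols activate the LXR receptors, which switch on the exporter *Abca1*. In the kidney, cholesterol handling has been studied mostly in podocytes, the epithelial cells of the filter, where loss of Abca1-dependent export is linked with lipid accumulation, and proximal tubule cells are also active in lipid metabolism.

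Column totals were 14242206 to 15379574 in male AS, 16737295 to 23182937 in male WT, 16941020 to 17153145 in heterozygous female AS and 17777238 to 20152078 in female WT libraries. The targeted gene *Col4a5* measured 572 to 727 in male AS and 1209 to 1854 in male WT libraries, and 1187 to 1330 in heterozygous female AS and 1752 to 2329 in female WT libraries. The file headers give the female AS and female WT libraries different run labels, so run and genotype cannot be told apart in females. None of the 10 podocyte markers was at 0 in any library, and none of the 12 proximal tubule markers was either. The 12 proximal tubule markers summed to 33532 to 85568 in male AS against 241703 to 399304 in male WT libraries, and all 12 fell in male AS (median log2 fold change -2.32). The 10 podocyte markers summed to 337948 to 429334 in male AS against 153365 to 239362 in male WT libraries, with 6 of 10 higher and none lower. The 10 glomerular endothelial markers summed to 118519 to 173010 in male AS against 65391 to 114338 in male WT libraries, with 7 of 10 higher and none lower (median log2 fold change 1.01). In females the proximal tubule sum was 97398 to 128568 in heterozygous AS and 104767 to 203713 in WT libraries, and 1 of 12 markers passed the test, in the downward direction. In bulk RNA, fewer cells of a type, less RNA per cell and a different purity of the isolated glomeruli cannot be told apart. The study's supplement states that purity was inspected under a microscope and filtering repeated if needed.

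The start regions of 3 synthesis genes are shown because 2 of them (*Hmgcs1* and *Idi1*) fell in male AS glomeruli and the other (*Lss*) did not pass the test. Each is the window of 250 bases before to 50 after the start given by RefSeq (GRCm38.p6). All are read 5′ to 3′ on the plus strand, where all 3 genes lie. The windows are chr13:119690101-119690400 for *Hmgcs1*, chr13:8885356-8885655 for *Idi1* and chr10:76531355-76531654 for *Lss*. For all 3 genes the RefSeq start differs from the first base of the gene coordinates given below. Capitals mark matches to the sterol regulatory element TCACNCCAC, the kind of sequence SREBPs bind, and to the CCAAT box, where their partner NF-Y binds, on either strand (ATTGG is CCAAT read on the minus strand, and no capitals of the 2 motifs overlap).
Hmgcs1: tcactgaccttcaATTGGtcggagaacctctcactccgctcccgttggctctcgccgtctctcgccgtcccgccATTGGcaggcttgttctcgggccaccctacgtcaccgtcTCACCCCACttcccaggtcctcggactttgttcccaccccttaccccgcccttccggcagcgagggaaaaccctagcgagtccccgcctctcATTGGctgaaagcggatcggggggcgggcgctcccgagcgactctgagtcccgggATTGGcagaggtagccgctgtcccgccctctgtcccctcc
Idi1: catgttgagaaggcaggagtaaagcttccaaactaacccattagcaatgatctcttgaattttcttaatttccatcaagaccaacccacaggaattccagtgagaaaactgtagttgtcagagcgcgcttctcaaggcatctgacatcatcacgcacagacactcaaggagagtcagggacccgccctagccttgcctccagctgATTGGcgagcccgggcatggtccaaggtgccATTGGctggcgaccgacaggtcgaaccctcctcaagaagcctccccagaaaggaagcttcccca
Lss: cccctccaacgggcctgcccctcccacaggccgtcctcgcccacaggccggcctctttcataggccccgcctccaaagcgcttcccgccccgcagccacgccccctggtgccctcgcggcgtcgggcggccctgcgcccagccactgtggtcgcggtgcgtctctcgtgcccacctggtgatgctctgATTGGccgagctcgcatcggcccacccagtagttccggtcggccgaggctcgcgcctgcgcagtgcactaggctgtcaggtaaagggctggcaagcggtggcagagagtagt
The *Hmgcs1* window held TCACCCCAC 137 bases before the start and 4 CCAAT boxes. The *Idi1* window held 2 CCAAT boxes, 45 and 14 bases before the RefSeq start, both inside the gene coordinates given below. The *Lss* window held 1, 62 bases before its RefSeq start. Neither window had a TCACNCCAC match. RefSeq windows were matched for 7 of the 8 members, and *Sqle* is named only. TCACNCCAC was found in 1.24% of the 32851 windows of this length and in 1 of the 7 matched members, *Hmgcs1*. CCAAT was found in 37.4% of all windows and in 6 of 7 matched members, all but *Abca1*, and CACGTG, an E-box, in 7.15% of all windows and in the windows of *Abca1* and *Insig1*. These matches describe letters in a window and were not tested as sites of binding.

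The main comparison asked which of the 8 genes differed between male AS and male WT glomeruli. *Hmgcs1*, *Idi1* and *Sqle*, all enzymes of the synthesis pathway, fell in male AS. The fourth enzyme *Lss*, the regulators *Srebf2*, *Srebf1* and *Insig1*, and the exporter *Abca1* did not pass the test. Thus 3 of 8 members were lower and none higher, where 18.9% of the 15881 genes tested were lower and 16.6% higher (3003 and 2638 genes, limma with Benjamini-Hochberg adjusted p under 0.05). The members' median log2 fold change was -0.41, against 0.00 over all genes tested. The same 3 members were the ones whose male AS and male WT libraries did not overlap, a state that held for 53.1% of all genes tested. Because the members were chosen with earlier results known, these shares describe them and do not test the set.

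*Hmgcs1* (chr13:119690379-119708260, GRCm38), the cytosolic synthase that condenses acetyl-CoA and acetoacetyl-CoA to HMG-CoA, had 3000.1, 1570.5 and 2474 TMM-scaled counts in male AS libraries, against 6359.6, 4611 and 7601 in male WT libraries. The lowest male WT library lay well above the highest male AS library. The means were 2348 ± 723 in male AS and 6190.5 ± 1502 in male WT (SD, n = 3 each), a log2 fold change of -1.41 with an SE of 0.27 (limma, adjusted p = 0.0092). *Hmgcs1* stood at position 723 from the lowest of the 15881 genes when ordered by log2 fold change. It stayed below the threshold in all 15 alternative settings and left-out libraries tried, with log2 fold changes of -1.61 to -0.998.

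*Idi1* (chr13:8885501-8892451), the isomerase that turns isopentenyl pyrophosphate into dimethylallyl pyrophosphate, had 983, 552 and 753 in male AS libraries, against 1169, 1221 and 1373 in male WT libraries. The groups did not overlap, and the male AS libraries were the more spread (763 ± 216 in male AS and 1254 ± 106 in male WT, SD, n = 3 each). The log2 fold change was -0.74 with an SE of 0.20 (limma, adjusted p = 0.026).

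*Sqle* (chr15:59315077-59331192), squalene epoxidase, the first oxygen-dependent step toward sterols, had 494, 294 and 346 in male AS libraries, against 722, 499 and 858 in male WT libraries. The groups did not overlap, though male AS replicate 1 and male WT replicate 2 nearly met. The means were 378 ± 104 in male AS and 693 ± 181 in male WT (SD, n = 3 each), and the log2 fold change was -0.84 with an SE of 0.24 (limma, adjusted p = 0.032). The calls of *Sqle* and *Idi1* were lost in 6 of 15 alternatives each. These were no filter on low values (limma adjusted p of 0.064 for *Sqle* and 0.052 for *Idi1*), equal column totals (0.124 and 0.242), and leaving out male AS replicate 2 (0.086 and 0.058), male AS replicate 3 (0.099 and 0.076), male WT replicate 1 (0.101 and 0.065) or male WT replicate 3 (0.102 and 0.083).

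*Lss* (chr10:76531588-76557138), lanosterol synthase, which closes the sterol rings on the product of Sqle, had 363, 329 and 338 in male AS libraries, against 246, 288 and 353 in male WT libraries. The groups overlapped, and the means were 343 ± 17.7 in male AS and 295 ± 53.8 in male WT (SD, n = 3 each). The log2 fold change was 0.22 with a 95% interval of -0.14 to 0.58 (limma, adjusted p = 0.293). *Lss* and *Sqle*, neighbors in the pathway, therefore had values on opposite sides of 0, although the difference between the 2 genes was not tested.

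*Srebf2* (chr15:82147181-82205379), whose product is the main SREBP for cholesterol genes, had 1844, 1801 and 1722 in male AS libraries, against 1502, 1542 and 1940.3 in male WT libraries. Male WT replicate 3 was the highest of the 6 libraries and the other 2 male WT libraries the lowest, and the log2 fold change was 0.11 (95% interval -0.19 to 0.42, limma, adjusted p = 0.513). *Srebf1* (chr11:60199089-60222581), which acts mainly on fatty acid synthesis, had 672, 733 and 592 in male AS libraries, against 434, 650.1 and 582 in male WT libraries. These groups also overlapped, with a log2 fold change of 0.27 (95% interval -0.12 to 0.66, limma, adjusted p = 0.243).

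*Insig1* (chr5:28071363-28078662), which retains Scap in the endoplasmic reticulum and is itself an SREBP target, had 586, 501 and 485 in male AS libraries, against 565, 696 and 728 in male WT libraries. Male AS replicate 1 lay above male WT replicate 1, so the groups overlapped, and the log2 fold change was -0.33 (95% interval -0.65 to 0.0026, limma, adjusted p = 0.106). *Abca1* (chr4:53030787-53159895), which loads cholesterol onto apolipoproteins, had 600.3, 490.4 and 561 in male AS libraries, against 744, 599 and 1051 in male WT libraries. The highest male AS library exceeded the lowest male WT library by about 1 TMM-scaled count. Its log2 fold change was -0.49 (95% interval -0.96 to -0.02), and the adjusted p of 0.092 (limma) missed the threshold. *Abca1* did pass with all 4 groups in one fit (0.042), without male WT replicate 2 (0.029) and with a block for replicate number.

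**Figure D1:**
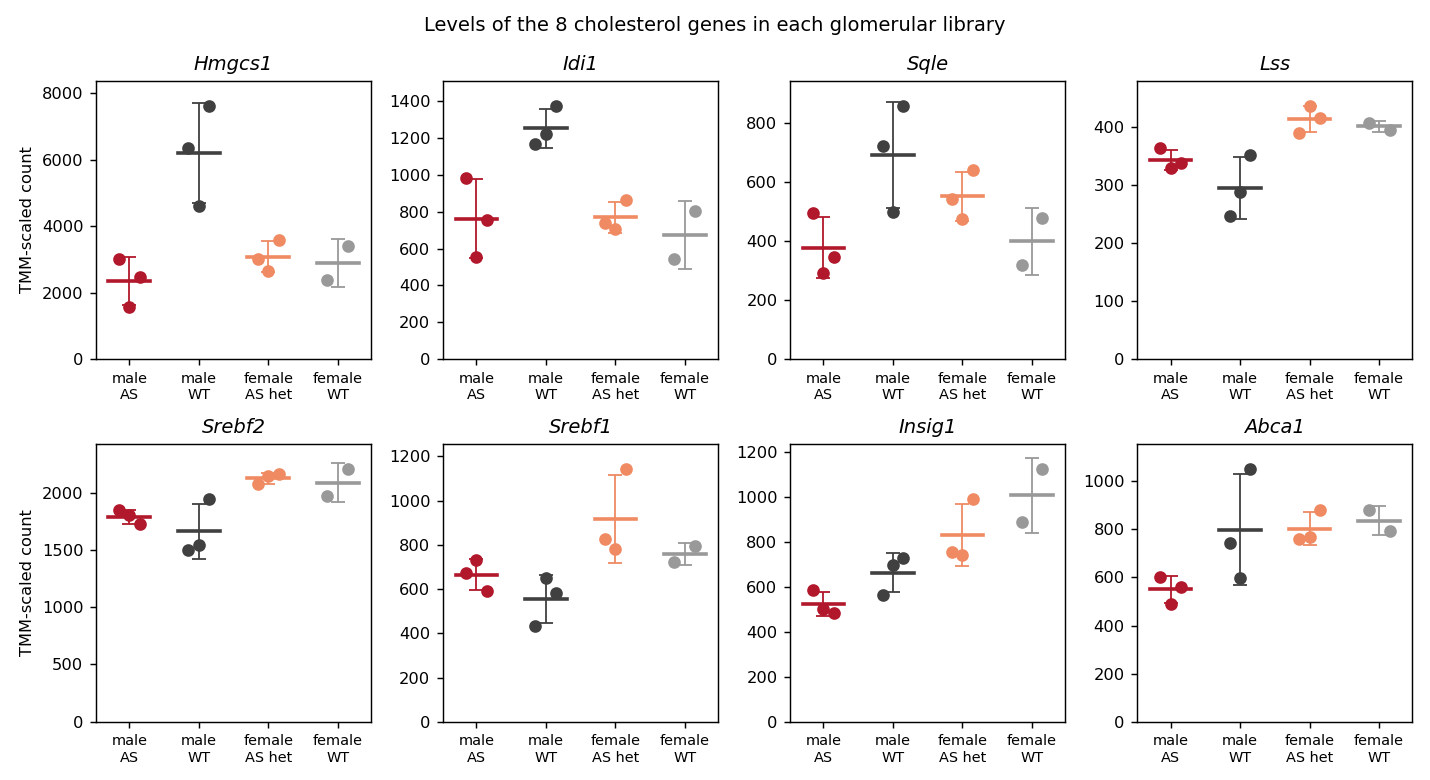
TMM-scaled count of each of the 8 genes (vertical axes, from 0) in every library (points), with the group mean (thick line) and SD (bars), n = 3 except n = 2 for female WT; the male and female tables were scaled separately. *Hmgcs1*, *Idi1* and *Sqle* show male AS points below all male WT points, with *Hmgcs1* at 1570.5 to 3000.1 against 4611 to 7601, while female groups overlap in all 8 panels.

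Total scaled counts were lower in each of the 3 male AS libraries than in any male WT library. When each library was instead set to the same column total, the median log2 fold change of all genes moved up by 0.39, and 78.8% of calls were higher, against 46.8% as deposited. On that scale *Hmgcs1* was still lower in male AS (log2 fold change -0.998, adjusted p = 0.0090, limma), while *Srebf2* (0.53, adjusted p = 0.049) and *Lss* (0.61, adjusted p = 0.043) passed as higher and *Insig1* turned to 0.08. Thus 1 of 8 members was lower and 2 higher, where 8.94% of all genes tested were lower and 33.3% higher. This rescaling multiplies each library by a single factor, so it shifts all genes nearly alike and all but fixes their order. That *Hmgcs1*, *Sqle* and *Idi1* were lowest and *Srebf2*, *Lss* and *Srebf1* highest on both scales is therefore no check of the order.

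Per length of the annotated exons, *Hmgcs1* was the highest of the 8 genes in every library and *Lss* the lowest. In male AS libraries the mean level per kilobase was 511 ± 157 for *Hmgcs1*, 249 ± 8.66 for *Srebf2*, 218 ± 61.6 for *Idi1*, 169 ± 17.6 for *Insig1*, 118 ± 12.6 for *Srebf1*, 68.2 ± 18.7 for *Sqle*, 53.1 ± 5.37 for *Abca1* and 31.8 ± 1.64 for *Lss* (TMM-scaled count per kilobase, SD, n = 3). In male WT libraries *Hmgcs1* was at 1348 ± 327, *Idi1* at 358 ± 30.2, *Srebf2* at 231 ± 33.8, *Insig1* at 214 ± 28.1, *Sqle* at 125 ± 32.7, *Srebf1* at 98.6 ± 19.6, *Abca1* at 77.0 ± 22.2 and *Lss* at 27.4 ± 4.98 (SD, n = 3). Neighbors in this order with overlapping ranges were *Srebf2* with *Idi1*, *Idi1* with *Insig1* and *Sqle* with *Abca1* in male AS, and *Srebf2* with *Insig1*, *Sqle* with *Srebf1* and *Srebf1* with *Abca1* in male WT. Every *Idi1* value in male WT lay above every *Srebf2* value there. In heterozygous female AS libraries the order was *Hmgcs1* (671 ± 104), *Srebf2*, *Insig1*, *Idi1*, *Srebf1*, *Sqle*, *Abca1* and *Lss* (38.4 ± 2.11, SD, n = 3). In female WT libraries it was *Hmgcs1* (630.1 ± 157), *Insig1*, *Srebf2*, *Idi1*, *Srebf1*, *Abca1*, *Sqle* and *Lss* (37.2 ± 0.875, SD, n = 2).

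The second comparison asked the same of heterozygous females. None of the 8 members passed the test in heterozygous female AS against female WT glomeruli (0 of 8 with limma, and 0 of 8 at an unadjusted p under 0.05), where 1.40% of 15803 genes did (222 genes, or 3449 at an unadjusted p under 0.05). The groups overlapped for all 8 members, against 40.4% of genes tested that did not overlap. The members' median log2 fold change was 0.07, against -0.01 over all genes tested.

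*Hmgcs1* had 3015, 2641 and 3594 in heterozygous female AS libraries, against 2384 and 3406 in female WT libraries, a log2 fold change of 0.10 (95% interval -0.36 to 0.56, limma). The sign of this value changed when female WT replicate 1 or heterozygous female AS replicate 3 was left out (-0.15 and -0.01). *Idi1* had 737, 709 and 865 in heterozygous female AS libraries, against 544 and 803 in female WT libraries (log2 fold change 0.21, 95% interval -0.22 to 0.64). Both genes showed the same 2 libraries at the ends, female WT replicate 1 lowest and heterozygous female AS replicate 3 highest.

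*Sqle* had 545, 475 and 640.1 in heterozygous female AS libraries, against 319 and 479 in female WT libraries. Its log2 fold change of 0.47 (95% interval -0.0038 to 0.95) was the member farthest from 0 in females, with an adjusted p of 0.233 (limma). Without female WT replicate 2, with 1 WT library left whose spread was assumed to be like that of the AS libraries, it was 0.75 with an adjusted p of 0.045. *Lss* had 390.4, 436 and 415 in heterozygous female AS libraries, against 408 and 394 in female WT libraries, the smallest spread of the 4 enzymes (log2 fold change 0.04, 95% interval -0.23 to 0.31).

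*Srebf2* had 2071, 2145 and 2159 in heterozygous female AS libraries, against 1970.15 and 2206 in female WT libraries (log2 fold change 0.03, 95% interval -0.23 to 0.28). *Srebf1* had 827, 780.0 and 1143 in heterozygous female AS libraries, against 723 and 794 in female WT libraries (0.25, 95% interval -0.17 to 0.67). Replicate 3 of the heterozygous females stood apart from the other 2 for *Srebf1*. *Insig1* had 755, 744 and 989 in heterozygous female AS libraries, against 889 and 1124 in female WT libraries (-0.28, 95% interval -0.68 to 0.12). *Abca1* had 759, 768 and 881 in heterozygous female AS libraries, against 879.9 and 793 in female WT libraries (-0.06, 95% interval -0.34 to 0.22). The intervals for *Srebf2*, *Lss* and *Abca1* held no change larger than 0.34 on the log2 scale, whereas that for *Sqle* reached 0.95.

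**Figure D2:**
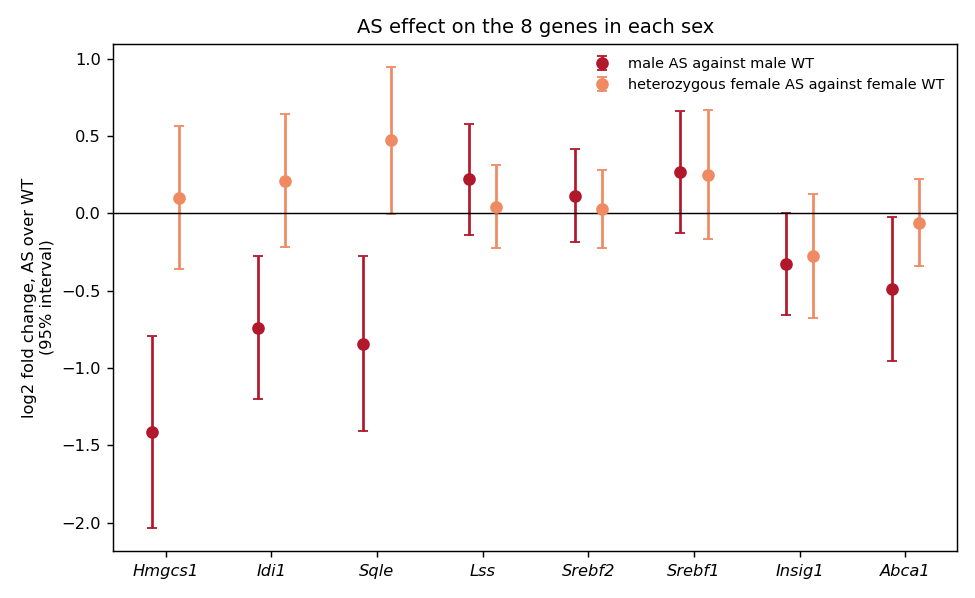
Log2 fold change of AS over WT (vertical axis) for each of the 8 genes in males (dark red) and heterozygous females (orange), with 95% intervals from limma. The male intervals of *Hmgcs1* (-2.03 to -0.79), *Idi1*, *Sqle* and *Abca1* (-0.96 to -0.02) lie below 0 and their female intervals do not, and the intervals of both sexes overlap for *Abca1* and the other 4 genes.

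The difference between the AS effects in males and heterozygous females was then tested itself, for genes tested in both sexes. The male effect was lower than the female effect for 3 of 8 members, where 12.8% of 15492 genes passed in that direction and none of the members passed in the other. The difference (male effect minus female effect) was -1.51 with an SE of 0.38 for *Hmgcs1* (limma, adjusted p = 0.026), -1.31 with an SE of 0.36 for *Sqle* (adjusted p = 0.030) and -0.95 with an SE of 0.30 for *Idi1* (adjusted p = 0.043). For *Srebf1* (0.02, 95% interval -0.56 to 0.59), *Insig1* (-0.05, -0.55 to 0.45), *Srebf2* (0.09, -0.28 to 0.46), *Lss* (0.18, -0.25 to 0.60) and *Abca1* (-0.43, -1.01 to 0.15) it did not pass. These calls rested on few libraries. No member passed without male WT replicate 1, male WT replicate 3, female WT replicate 1 or heterozygous female AS replicate 3, where *Hmgcs1* had adjusted p of 0.057, 0.060, 0.154 and 0.061 (limma) and 3, 3, 2 and 3 members had an unadjusted p under 0.05. *Hmgcs1* alone passed without male AS replicate 2 or 3, without heterozygous female AS replicate 1 or 2, and with no filter on low values, where *Sqle* had adjusted p of 0.059, 0.060, 0.054, 0.051 and 0.05003. *Idi1* also did not pass on equal column totals (0.116) or with the replicate block (0.066). Sex also cannot be told apart from *Col4a5* dose, since the males were *Col4a5*-/- and the females heterozygous. Run and genotype cannot be told apart in females, so run cannot be told apart from genotype in this difference either. The tables of the sexes were scaled separately.

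Other enzymes of the synthesis pathway also fell in males. Of the 15 enzymes listed beyond the members, 6 fell in male AS and none rose (median log2 fold change -0.44, against 0.00 over all genes tested), so that 9 of the 19 synthesis enzymes listed were lower, where 18.9% of all genes tested were. Without male WT replicate 1, male WT replicate 3, male AS replicate 2 or male AS replicate 3, 5 of the 19 were lower. With no filter on low values 6 were. These enzymes too were listed with earlier results of these data known. *Acat2*, which makes the acetoacetyl-CoA used by Hmgcs1, had 563, 327 and 564 in male AS libraries, against 1407, 929.9 and 1516 in male WT libraries (-1.38, adjusted p = 0.0086). Its groups did not overlap. *Nsdhl*, a C4 demethylation enzyme, had a log2 fold change of -1.06 (adjusted p = 0.0078) and *Mvd*, mevalonate diphosphate decarboxylase, one of -0.92 (adjusted p = 0.0093). *Ebp*, the sterol isomerase, had one of -0.75 (adjusted p = 0.0054), and *Tm7sf2* and *Fdft1* were also lower.

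*Cyp51*, which removes the C14 methyl group of lanosterol, did not pass the test and was at 862, 502 and 626 in male AS libraries, against 1215, 757 and 1293 in male WT libraries (log2 fold change -0.70, adjusted p = 0.063). On equal column totals 3 of the 19 enzymes were lower (*Hmgcs1*, *Acat2* and *Nsdhl*) and 3 higher (*Lss*, *Pmvk* and *Dhcr7*), where 8.94% of all genes tested were lower and 33.3% higher on that scale.

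**Figure D3:**
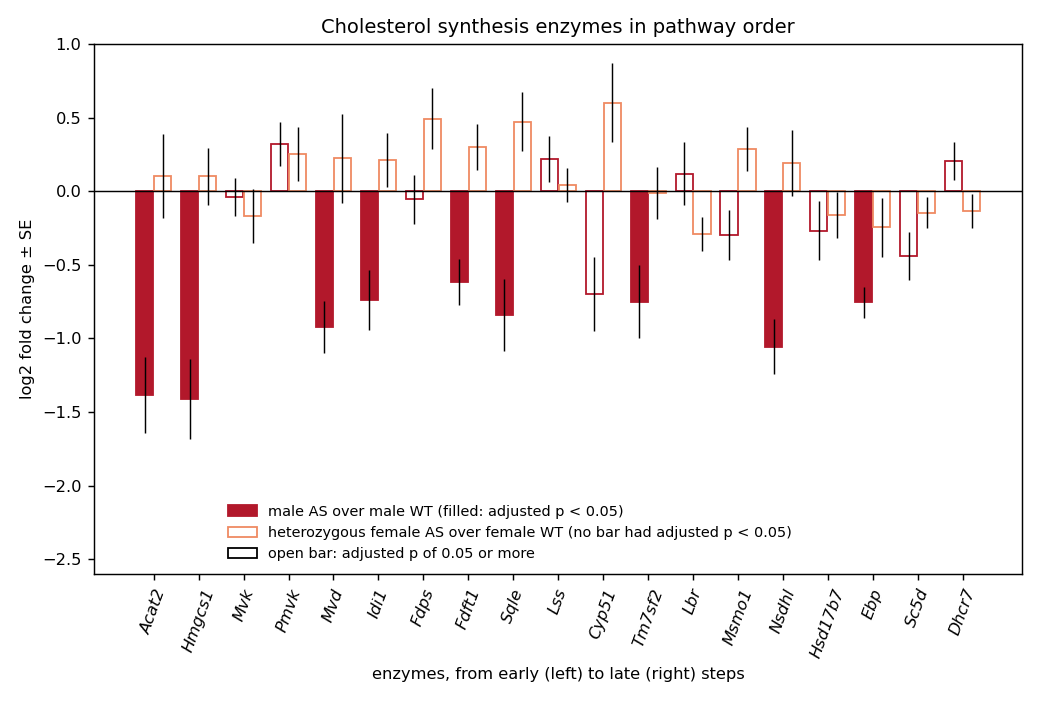
Log2 fold change ± SE (vertical axis) of 19 cholesterol synthesis enzymes ordered along the pathway (horizontal axis), male AS over male WT in dark red and heterozygous female AS over female WT in orange, filled where the adjusted p was under 0.05. The 9 filled bars are all male, all below 0, and spread from *Acat2* (-1.38) at the start to *Ebp* (-0.75) near the end, with unfilled enzymes such as *Lss* (0.22) between them.

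In heterozygous female AS against female WT, 0 of the 19 enzymes passed with limma, and 2 had an unadjusted p under 0.05. The 2 with the smallest p among the 15 other enzymes were *Lbr* (log2 fold change -0.29, adjusted p = 0.201) and *Fdps* (0.49, adjusted p = 0.227). *Cyp51* had 1394, 966 and 1500.4 in heterozygous female AS libraries, against 631 and 1081 in female WT libraries (0.60, adjusted p = 0.245). The difference between the sexes was negative and past the test for 8 of the 19 enzymes, the 3 members and *Acat2*, *Cyp51*, *Nsdhl*, *Mvd* and *Fdft1* (-1.49 to -0.92 for these 5), and positive for none, where 12.8% of all genes tested passed as negative and 10.5% as positive. It passed for none of the 19 (limma) without male WT replicate 1, male WT replicate 3, female WT replicate 1 or heterozygous female AS replicate 3 (9, 8, 5 and 8 at an unadjusted p under 0.05), for 2 without male AS replicate 3 or heterozygous female AS replicate 1, for 3 without male AS replicate 2 or heterozygous female AS replicate 2 or with no filter on low values, and for 5 on equal column totals.

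Genes that sense sterols and release SREBPs did not pass the test within either sex. Of *Scap*, *Insig2*, *Mbtps1*, *Mbtps2* and *Rnf139*, 0 of 5 passed in males (limma, 1 at an unadjusted p under 0.05, median log2 fold change -0.23) and 0 of 5 in females (1 at an unadjusted p under 0.05, median -0.084). *Scap* had a log2 fold change of -0.28 (adjusted p = 0.100) and *Rnf139*, a ubiquitin ligase, one of -0.32 (adjusted p = 0.115) in males. In females the smallest p were those of *Mbtps1*, the site-1 protease that cuts SREBPs (-0.30, adjusted p = 0.186), and *Scap* (-0.19, adjusted p = 0.344). The difference between the sexes passed for *Mbtps1* alone of the 5 (male effect minus female effect 0.48 with an SE of 0.15, limma, adjusted p = 0.043), where 10.5% of all genes tested passed in that direction, and it held in 7 of 20 alternatives (adjusted p up to 0.188).

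Uptake genes moved in both directions in male AS, with 1 higher and 4 lower of 10 (median log2 fold change -0.04), where 16.6% of all genes tested were higher and 18.9% lower. *Lrp1*, a lipoprotein receptor, was higher (log2 fold change 0.74, adjusted p = 0.037). The 4 that fell were *Lrp2* (-2.34, adjusted p = 0.010), the megalin receptor of the proximal tubule, the fatty acid transporter *Cd36* (-1.96, adjusted p = 0.0039), the VLDL receptor *Vldlr* (-1.39, adjusted p = 0.017) and lysosomal acid lipase *Lipa* (-1.22, adjusted p = 0.0054). *Lrp2* is also counted among the proximal tubule markers above. In females 0 of 10 passed (limma, 3 at an unadjusted p under 0.05), with *Cd36* (-0.60, adjusted p = 0.085) and *Lipa* (-0.79, adjusted p = 0.088) closest.

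Of the 13 genes of efflux, esterification and LXR signaling, 10 were expressed enough to be tested, and 2 rose and 4 fell in male AS (median log2 fold change -0.40), against 16.6% of all genes tested that rose and 18.9% that fell. *Abcg1*, an exporter to HDL and like *Abca1* an LXR target, had 500.3, 791 and 716 in male AS libraries, against 339, 397 and 279 in male WT libraries (0.94, adjusted p = 0.013). *Abca1* and *Abcg1* therefore had log2 fold changes of opposite sign. *Ch25h*, which makes 25-hydroxycholesterol, was higher (0.80, adjusted p = 0.039). The LXR-alpha gene *Nr1h3* had 114, 92.1 and 121 in male AS libraries, against 347, 229.8 and 248 in male WT libraries (-1.20, adjusted p = 0.0064). *Cyp7b1*, an oxysterol hydroxylase, fell (-1.43, adjusted p = 0.013), as did the cholesteryl ester hydrolase *Nceh1* (-1.42, adjusted p = 0.0083) and *Rxra*, the partner of LXR (-0.48, adjusted p = 0.037). In females 0 of 10 passed (3 at an unadjusted p under 0.05), led by *Soat1* (-0.33, adjusted p = 0.147) and *Cyp27a1* (-0.30, adjusted p = 0.170).

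Fatty acid synthesis, the branch of SREBP-1, had 5 of 14 tested genes lower and none higher in male AS (median log2 fold change -0.32), where 18.9% of all genes tested were lower and 16.6% higher. *Me1*, which supplies NADPH, had 1500.3, 656 and 1386 in male AS libraries, against 4897, 3529.6 and 5461 in male WT libraries (-2.02, adjusted p = 0.0062). *Acss2*, which makes acetyl-CoA from acetate (-1.71, adjusted p = 0.0059), the desaturase *Fads2* (-1.64, adjusted p = 0.0071) and the acyltransferase *Gpam* (-1.09, adjusted p = 0.023) also fell, while *Srebf1* itself did not pass. In females 0 of 14 passed (3 at an unadjusted p under 0.05), with *Elovl5* (-0.60, adjusted p = 0.064) and *Acacb* (1.08, adjusted p = 0.064) closest.

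Of the list genes named above in males, *Acat2*, *Nsdhl*, *Lrp2*, *Cd36*, *Lipa*, *Nceh1*, *Nr1h3*, *Me1*, *Acss2* and *Fads2* passed in all 15 alternatives. The calls of *Rxra* and *Tm7sf2* (8 of 15 each), *Gpam* (6), *Lrp1*, *Ch25h* and *Fdft1* (5 each) were lost most often, and of the single libraries male WT replicate 3 and male AS replicate 2 ended all 6. The largest adjusted p over the alternatives (limma) was 0.813 for *Rxra*, 0.216 for *Tm7sf2*, 0.067 for *Gpam*, 0.108 for *Lrp1*, 0.094 for *Ch25h* and 0.345 for *Fdft1*, and *Rxra*, *Tm7sf2*, *Gpam* and *Fdft1* were also lost on equal column totals. *Vldlr* was lost without male WT replicate 1 or 3 (up to 0.065), *Cyp7b1* without male WT replicate 1 (0.056), *Abcg1* without male AS replicate 3 (0.052) and *Mvd* and *Ebp* on equal column totals (0.051 and 0.128).

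Proximal tubule markers moved with the 3 members in males. Ordering the 6 male libraries by the summed level of the 12 markers gave male AS replicates 2, 3 and 1 and then male WT replicates 2, 1 and 3, and *Hmgcs1* and *Sqle* gave exactly this order. *Idi1* differed from it only in the places of male WT replicates 1 and 2, and *Abca1* only in those of male AS replicate 1 and male WT replicate 2. *Insig1*, *Srebf1*, *Srebf2* and *Lss* departed from it further, and in the 5 female libraries no member gave the order of the marker sum. The male marker order puts every AS library before every WT library, as does any gene lower in male AS without overlap. How many of all genes tested share the full order was not counted. Across all 11 libraries, the 3 lowest marker sums (33532, 71184 and 85568, male AS) and the 3 highest (241703, 360309 and 399304, male WT) were male, though the tables of the sexes were scaled separately. The part of tubule RNA in the lower *Hmgcs1*, *Idi1* and *Sqle* of male AS was not tested. Markers of the distal nephron, from the loop of Henle onward, were also lower in males (5 of 9, median log2 fold change -1.64), summing to 22363 to 74132 in male AS against 55834 to 93846 in male WT libraries. In females they summed to 56925 to 79195 in heterozygous AS against 18575 to 29904 in WT libraries, groups that did not overlap, and 2 of 9 rose and none fell (median log2 fold change 0.23). In males, of 7 macrophage and dendritic cell markers tested 1 was lower, and of 5 erythroid markers 0 passed with limma (2 at an unadjusted p under 0.05).

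**Figure D4:**
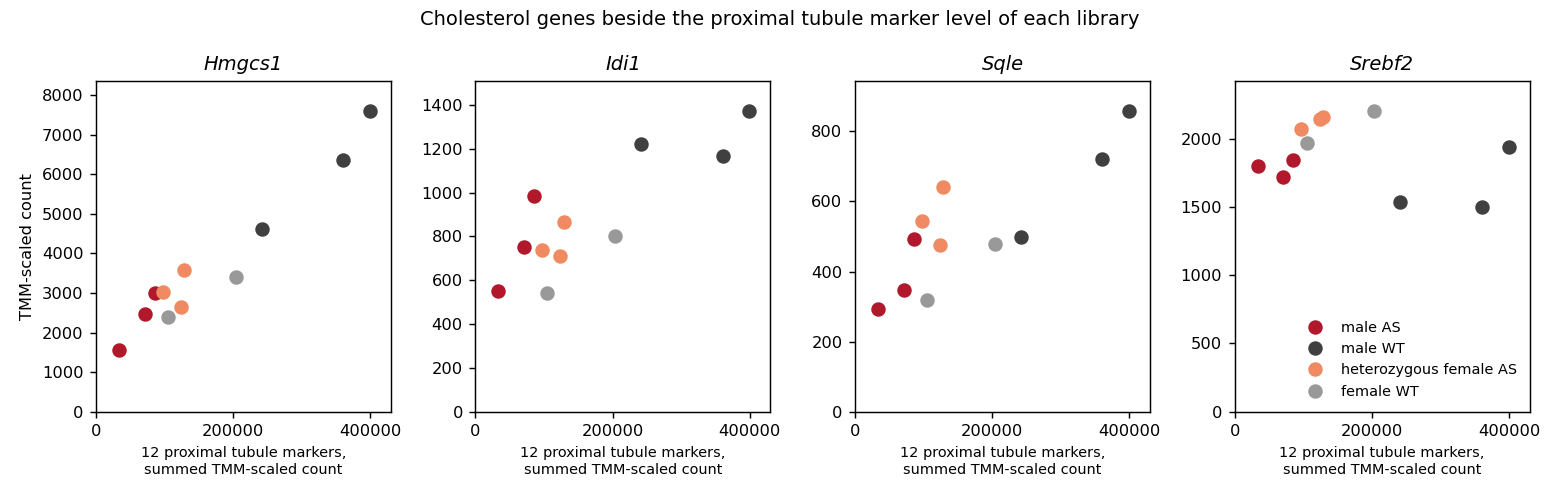
TMM-scaled count of *Hmgcs1*, *Idi1*, *Sqle* and *Srebf2* (vertical axes) against the summed TMM-scaled count of 12 proximal tubule markers (horizontal axes), 1 point per library, colored by group, with the male and female tables scaled separately. Male AS points sit at the lower left and male WT points at the upper right for the first 3 genes, with *Hmgcs1* and *Sqle* in the same order as the marker sum among males, whereas *Srebf2* shows no such order.

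Circadian genes were checked because cholesterol synthesis is known to follow the time of day and time of collection is not given in the sources used here. In females, where no member passed, 8 of 15 tested clock genes fell and 2 rose, where 1.40% of all genes tested passed. *Dbp* was at 321 ± 87.1 in heterozygous female AS and 2727 ± 312 in female WT (SD, n = 3 and n = 2; log2 fold change -3.04, limma, adjusted p = 0.0054), and *Npas2* was at 235 ± 8.82 and 30.7 ± 5.03 in the same groups (2.39, adjusted p = 0.0030). In males 4 of 15 rose and 4 fell, where 16.6% of all genes tested were higher and 18.9% lower. *Per1* was highest (1.36, limma, adjusted p = 0.0039) and *Dbp* lowest (-1.81, adjusted p = 0.015). The difference between the sexes passed for 11 of the 15, 8 positive and 3 negative, where 10.5% and 12.8% of all genes tested did. *Per1* had the largest positive difference (male effect minus female effect 2.45, limma, adjusted p = 0.015) and *Npas2* the largest negative (-1.93, limma, adjusted p = 0.020). Run and genotype cannot be told apart in the female values. The part of collection time in the members' values was not tested.

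The genes whose pattern was most like each member were found by Pearson's r of log2 values over the 11 distinct libraries after each sex's mean was removed, so the points share libraries and carry the AS and WT difference. For *Hmgcs1* they were *Rufy3*, *Bnip3* and *Mpv17l* (r of 0.991, 0.990 and 0.990). For *Sqle* they were *Ppa1*, *Pbld2* and *Mrpl45* (0.986, 0.983 and 0.981), and for *Idi1* *Fn3k*, *Aldh1l1* and *Rab17* (0.987, 0.986 and 0.985). The other members had less close matches, led by *Timm22* for *Insig1* (0.952), *Zxdc* for *Lss* (0.949), *Timm10b* for *Srebf1* (0.948), *Il22ra1* for *Abca1* (0.943) and *Polr1b* for *Srebf2* (0.930). Among the members themselves, *Hmgcs1*, *Sqle* and *Idi1* were close to each other (0.917 to 0.938), while *Hmgcs1* had r of -0.37 with *Srebf1* and -0.12 with *Srebf2*.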

How the data were processed

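Glomeruli were isolated by collagenase digestion and sieving, and polyA-selected stranded libraries were made from their total RNA. Per the labels and the submitters' processing notes, the authors used FastQC for read quality, cutadapt for trimming, STAR for alignment to mm10 and Partek for counting. Versions and whether counting used strand are not given in the sources used here. The deposited signal values are gene counts that the authors scaled by TMM. Only 78.9% to 81.7% of low values were whole multiples of one step (tolerance 0.01), so no count test was run. *Hmgcs1*, *Idi1*, *Lss* and *Srebf1* share exonic bases with genes on the opposite strand, and *Srebf1* also with the microRNA gene *Mir6922* on the same strand. The members and lists were chosen with earlier results of these data known.

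A gene was tested where 3 or more libraries of the sex reached 0.5 CPM, on log2(value + 1 CPM of the mean column total), which is 17.6 in males and 17.8 in females, with limma 3.58.1 (trended, R 4.3.3), two-sided, Benjamini-Hochberg adjusted at 0.05 over all genes, within each sex and for the difference between sexes. On this scale changes of low genes are understated. The p-values measure only the spread between these samples. The fits were tested on simulated data. All members were named; of each list, up to 4 genes past the test in each direction, or else the 2 with the smallest p. *Cyp51*, *Tm7sf2*, *Fdft1* and library values of list genes were added after their values were seen. Some list genes are not reported here and were left out of the list counts. Alternatives were pseudocount, filter, scaling, samples in the fit, replicate block and left-out libraries.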

Additional observations from a re-analysis of the deposited data

Results flagged for a closer look

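The AS effect differed between males and heterozygous females, by a test of the difference itself, for 3 of 8 members, where 12.8% of all genes tested passed in that direction. *Hmgcs1* had a difference (male effect minus female effect) of -1.51 on the log2 scale (limma, adjusted p = 0.026), *Sqle* one of -1.31 (adjusted p = 0.030) and *Idi1* one of -0.95 (adjusted p = 0.043). None of the 3 passed without male WT replicate 1, male WT replicate 3, female WT replicate 1 or heterozygous female AS replicate 3, and *Hmgcs1* alone passed without male AS replicate 2 or 3, without heterozygous female AS replicate 1 or 2, or with no filter on low values. The log2 fold changes of *Sqle* were -0.84 in males and 0.47 in females. Groups of 3 or fewer libraries were not tested for outlying libraries. Run and genotype cannot be told apart in females, nor sex and *Col4a5* dose, and this holds for the difference as well. Of 15 tested clock genes, the difference was positive and past the test for 8 and negative for 3, where 10.5% and 12.8% of all genes tested were. The part of collection time in the members' difference was not tested. The members were chosen with earlier results of these data known, so the share beside them does not test the set. In males the proximal tubule marker sum was 33532 to 85568 in AS and 241703 to 399304 in WT libraries, and in females 97398 to 128568 in heterozygous AS and 104767 to 203713 in WT libraries, and its part in the difference was not tested.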

How the results depend on the processing

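The males' *Hmgcs1*, *Acat2* and *Nsdhl* calls held in all 15 alternatives. With 3 libraries a group or fewer, the left-out libraries moved most counts, and the cause was not tested. Genes past the test ranged over 2488 to 5878 in males (5641 with all libraries), 4 to 1805 in females (222) and 0 to 4841 for the difference (3602) when each library was left out in turn. Members past the test then ranged over 1 to 4 in males, 0 to 1 in females (*Sqle*, without female WT replicate 2) and 0 to 3 for the difference, and synthesis enzymes over 5 to 11, 0 to 2 and 0 to 9. Without female WT replicate 1 the difference had 0 calls with limma (3638 genes at an unadjusted p under 0.05).

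With no filter on low values, 1 member passed in males and 1 for the difference (*Hmgcs1* in each), with 8 genes called in females, and 2021 genes and 3 enzymes for the difference. A 2 CPM filter called 147 genes in females. Equal column totals called 674 genes in females (92.9% higher, against 75.2%), 5 enzymes for the difference (55.2% of all its calls positive, against 45.1%), and moved the median of all genes by 0.39 in males, 0.14 in females and 0.25 for the difference. There the values of *Insig1* (0.078 in males, 0.20 for the difference), *Scap* (0.13), *Rnf139* (0.087) and female *Abca1* (0.090) changed sign, and female *Abca1* was 0.0080 after quantile normalization, where the median for the difference moved by 0.10. Keeping the repeated female WT library as its own called 2517 genes and 1 enzyme in females and 5722 genes for the difference, and turned *Srebf1* for the difference to -0.0038.

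Samples could be paired by replicate number only. In males the correlations of same-numbered deviations were 0.048, 0.523 and 0.057, and those of different numbers ranged over -0.500 to 0.485. In females they were 0.257 and -0.047 for the same numbers. With 2 female WT libraries these values mirror each other between the WT libraries (0.257 and -0.257 for heterozygous AS replicate 1) and cannot show pairing. With the replicate block, 6413 genes were called in males, 881 in females and 3443 for the difference, *Abca1* passed in males (adjusted p = 0.041), *Idi1* did not for the difference (0.066), and female *Hmgcs1* (-0.014) and *Insig1* for the difference (0.082) changed sign. Over the left-out libraries, values that crossed 0 ranged over -0.15 to 0.36 for *Hmgcs1*, -0.054 to 0.11 for *Srebf2*, -0.064 to 0.48 for *Idi1* and -0.13 to 0.013 for *Abca1* in females, and -0.22 to 0.12 for *Insig1* and -0.14 to 0.18 for *Srebf1* for the difference. None of the values that changed sign was past the threshold.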
